A study of Mus musculus with 4 samples.

Results

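The genes followed here are 10 genes that mark the formation of osteoclasts and of fused, multinucleate macrophages: Tnfrsf11a, Nfatc1, Acp5, Ctsk, Dcstamp, Ocstamp, Oscar, Calcr, Atp6v0d2 and Itgb3. They were chosen by symbol, as a list of known osteoclast genes, with earlier results of these data known. All 10 were among the 21878 genes of the count table. Of these 10 genes, 7 passed the filter on low counts and were tested together with the other genes, 12494 genes in all. Ocstamp, Oscar and Calcr did not pass it and are described by their counts.

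RNA was sequenced from bone marrow-derived macrophages (BMDMs) that had been cocultured with MC38 cells, a mouse colorectal cancer (CRC) cell line, for 48 h according to the sample labels (the study's text gives a shorter coculture). The study's methods describe coculture with macrophages and CRC cells on opposite sides of a porous insert, and RNA extraction from the macrophages. The macrophages came from C57BL/6 mice labelled as 8 weeks old, and the marrow was grown with the cytokine M-CSF. WT macrophages came from wild type mice, and anti-Act1 macrophages came from mice with a macrophage-specific knockdown of Act1, the adaptor protein encoded by Traf3ip2; the promoter behind the knockdown is not given in the sources used here. There were 2 libraries in each group, called biological replicates in the study's methods, and all 4 were cocultured, so that no value for macrophages without tumor cells enters the comparison.

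Osteoclasts arise from the same myeloid precursors as macrophages. M-CSF, acting on its receptor Csf1r, keeps the precursors alive and makes them express RANK (Tnfrsf11a). RANKL (Tnfsf11) binds RANK, which recruits the adaptor Traf6 and activates NF-κB and AP-1. With calcium signals from receptors that use the adaptors Tyrobp and Fcer1g, such as Oscar, this pathway turns on Nfatc1, the transcription factor at the head of osteoclast formation. Nfatc1 then drives the genes for cell fusion (Dcstamp, Ocstamp, Atp6v0d2), for attachment to bone (Itgb3) and for its resorption (Acp5, Ctsk). Calcr, the calcitonin receptor, is a late marker of the mature osteoclast.

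The sequences before the start sites of 3 members whose transcripts differed between the groups are given here because Tnfrsf11a was lower and Ctsk and Acp5 were higher in the anti-Act1-labelled libraries. RefSeq promoters (GRCm38.p6) were given for 5 of the 10 members, with 8 start sites in all: Tnfrsf11a, Ctsk and Oscar with 1 each, Calcr with 2 and Acp5 with 3. Nfatc1, Dcstamp, Ocstamp, Atp6v0d2 and Itgb3 had no entry. Each sequence runs 5′ to 3′ on the gene's own strand and ends before the first annotated exon base at the start site in question. Capitals mark the letters GGAAA (the core bound by NFAT factors), CANNTG (an E-box) or GAGGAA (a core bound by PU.1), or their reverse complements. The Tnfrsf11a stretch is chr1:105780473-105780717 on the plus strand, and the Ctsk stretch is chr3:95498960-95499209 on the plus strand. The Acp5 stretch is chr9:22130609-22130848 on the minus strand, before the most downstream of its 3 start sites. That stretch lies inside the Acp5 gene as annotated, which spans 22126727 to 22135711.
Tnfrsf11a: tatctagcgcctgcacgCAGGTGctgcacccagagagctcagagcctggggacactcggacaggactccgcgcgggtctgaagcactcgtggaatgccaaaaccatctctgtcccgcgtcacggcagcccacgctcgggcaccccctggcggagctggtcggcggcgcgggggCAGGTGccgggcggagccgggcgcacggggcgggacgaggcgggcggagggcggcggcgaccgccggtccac
Ctsk: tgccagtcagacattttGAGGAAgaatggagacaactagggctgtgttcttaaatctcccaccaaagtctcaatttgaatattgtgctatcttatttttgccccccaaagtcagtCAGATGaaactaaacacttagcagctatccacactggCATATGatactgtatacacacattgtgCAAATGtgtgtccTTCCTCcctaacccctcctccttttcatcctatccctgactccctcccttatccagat
Acp5: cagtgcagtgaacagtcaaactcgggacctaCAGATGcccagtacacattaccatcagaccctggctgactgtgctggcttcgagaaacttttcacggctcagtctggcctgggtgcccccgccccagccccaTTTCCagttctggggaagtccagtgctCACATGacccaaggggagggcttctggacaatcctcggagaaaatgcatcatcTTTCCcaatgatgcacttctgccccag

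The window searched was the 250 bases before each start site, on both strands. Acp5 held the NFAT core 2 times in the window shown, and 1 time before each of its other start sites. Ctsk and Tnfrsf11a held no NFAT core in this window, where Ctsk had 3 E-boxes and 2 PU.1 cores and Tnfrsf11a had 2 E-boxes. Neither the AP-1 letters TGANTCA nor TCACGTG, the E-box form read by MITF and TFE factors, which is itself also a CANNTG match, was found before any of the 8 start sites. Of all 32851 promoters in the table, 55.6% held the NFAT core, 66.2% CANNTG, 23.25% the PU.1 core, 6.75% the AP-1 letters and 3.13% TCACGTG. The matches describe letters, not bound sites.

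**Figure D1:**
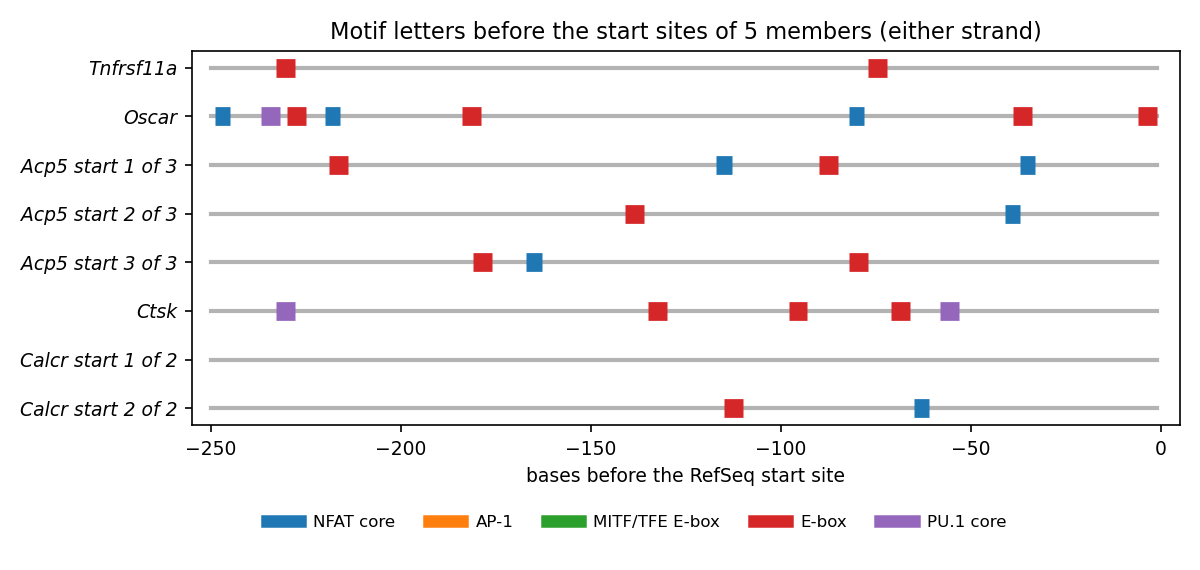
Positions of the 5 motifs in the 250 bases before the 8 RefSeq start sites of 5 members (the x axis gives bases before the start site, each row is a start site, numbered for Acp5 and Calcr by ascending coordinate, and blocks are matches on either strand, coloured by motif). The 3 Acp5 rows hold 2, 1 and 1 NFAT cores, the Ctsk and Tnfrsf11a rows hold none, and no row holds an AP-1 or MITF/TFE match.

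The libraries held between 55435063 and 75062945 counted reads. The macrophage markers summed to between 33351 and 34707 CPM, the unit of counts after division by library depth, with 14 of 15 markers above 1 CPM on average. The tumor epithelial markers summed to 1.48 to 2.32 CPM, with Krt8, Krt18, Krt20, Cldn3, Cldn4 and Cdx2 at 0 in every library, and the osteoblast markers to 7.65 to 9.34 CPM, nearly all of it Runx2, with Bglap2, Alpl, Ibsp and Dmp1 at 0. The targeted gene Traf3ip2 had 451 and 572 counts in WT libraries and 595 and 428 in the anti-Act1-labelled ones, giving a log2 fold change of 0.27 (standard error, SE, 0.12, adjusted p = 0.117, edgeR), and it rested on single libraries, being 0.11 (adjusted p = 0.723) without anti-Act1 replicate 1 and 0.41 (adjusted p = 0.0343) without anti-Act1 replicate 2. The targeted transcript was thus not called lower where the labels place the knockdown, and the directions below are those between the labels. The paper reports separately that Act1 expression was clearly lower in BMDMs of anti-Act1 mice. It does not say there whether RNA or protein was measured, and it names no coculture. That report may thus be unlike the transcript counts here in measure and condition. Why the transcript counts here differ from it was not tested. The groups also differed in the Y-linked genes Ddx3y, Uty, Kdm5d and Eif2s3y, with at least 2248 counts in each WT library and at most 1 in each anti-Act1 library. The sex of the mice is not given in the labels, and it cannot be told apart from the genotype in any result below.

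Across the tested members, 3 were higher in the anti-Act1-labelled libraries (Acp5, Ctsk and Itgb3), 3 were lower (Tnfrsf11a, Dcstamp and Atp6v0d2) and Nfatc1 was not called in either direction. A call is an adjusted p under 0.05 in edgeR's two-sided quasi-likelihood test over all 12494 genes, 20.7% of which were called, 10.9% higher and 9.76% lower. Thus 6 of the 7 tested members were called, in equal numbers up and down. Their median log2 fold change was -0.12 (all genes tested, -0.0046), and leaving out WT replicate 1 moved it to -0.22, leaving out WT replicate 2 to -0.013. Their median absolute log2 fold change was 0.42 (all genes tested, 0.12). CPM did not overlap between the groups for the 6 called members, as for 57.1% of all genes tested. In RNA pooled from all macrophages of a library, fewer cells expressing a gene cannot be told apart from less of its RNA per cell.

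**Figure D2:**
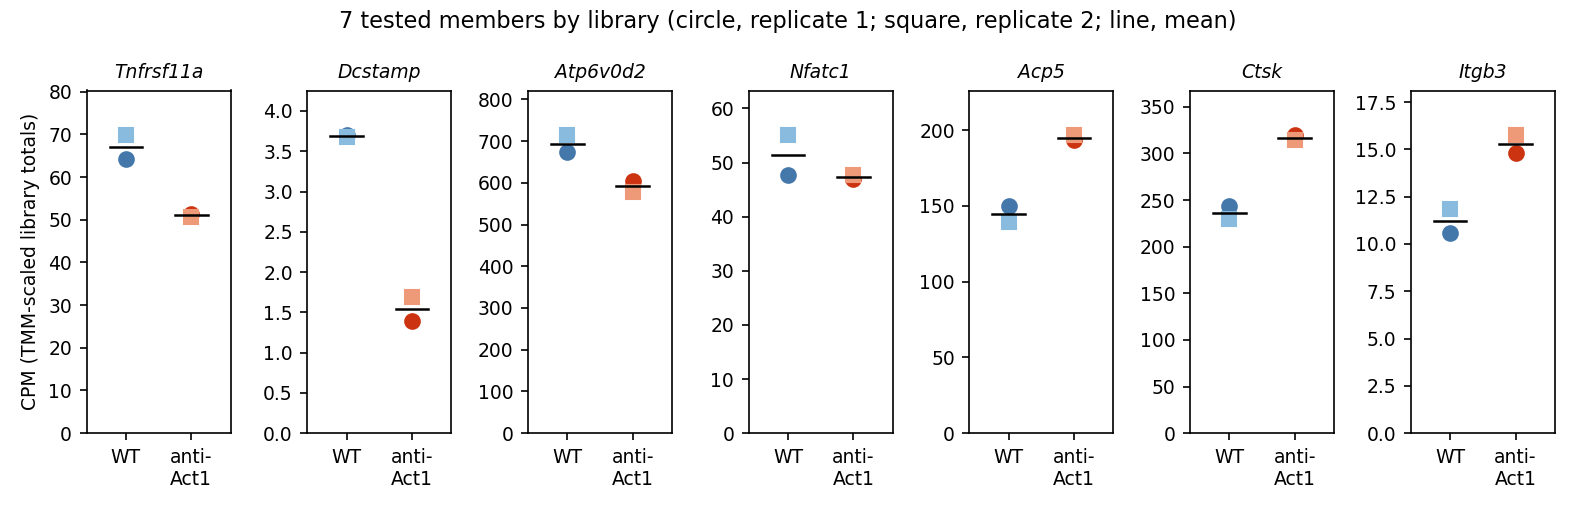
CPM of the 7 tested members in each library (the y axis starts at 0 with its own scale for each gene, circles are replicate 1, squares are replicate 2 and lines are the mean of 2 libraries). Tnfrsf11a, Dcstamp and Atp6v0d2 lie lower and Acp5, Ctsk and Itgb3 higher in both libraries labelled anti-Act1, while the Nfatc1 points overlap.

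Tnfrsf11a encodes RANK, the receptor through which RANKL starts osteoclast formation. Its level was 64.3 and 69.8 CPM in the WT libraries and 51.4 and 50.7 CPM in the anti-Act1-labelled libraries. Both WT libraries were thus above both others. For RANK the log2 fold change was -0.39 (SE 0.060, 95% interval -0.52 to -0.27, adjusted p = 1.17e-06), or 1.31-fold higher in WT. The level of RANK relative to that of Csf1r, the receptor that marks the precursor, did not overlap either. The ratio of their FPKM (a level scaled by gene length and library total) was 0.0260 and 0.0277 in WT and 0.0222 and 0.0210 in anti-Act1 libraries. With 2 libraries against 2, an exact two-sided permutation test of such a ratio cannot give a p below 0.333. The ligand Tnfsf11 was near the floor of detection, with 2 and 10 counts in WT and 2 and 6 in anti-Act1 libraries, and its decoy receptor Tnfrsf11b had 3 and 0 against 0 and 2 counts. Csf1r itself differed by -0.074 on the log2 scale and was not called (adjusted p = 0.317).

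Downstream of RANK, the list of RANKL-RANK signalling genes had 20 of its 22 genes tested, and 5 rose while 2 fell, with a median of -0.0037. The genes that rose most were Relb (0.52, adjusted p = 1.62e-08) and Nfkb2 (0.40, adjusted p = 7.38e-07), the partner subunits of the noncanonical NF-κB pathway, with Traf6 (0.43, adjusted p = 3.36e-08), the adaptor of RANK, and Traf3 (0.29, adjusted p = 0.000398), a brake on that pathway. Thus in the same libraries in which RANK was lower, Traf6 was at 77.3 and 82.5 CPM in WT and 109 and 106 CPM in anti-Act1 libraries, and these values did not overlap. Of the M-CSF axis, 2 of 6 tested genes rose and the other 4 were not called. They were Csf1 (0.57, adjusted p = 1.70e-07), the gene of M-CSF, and Csf2rb (0.19, adjusted p = 0.0029), the common beta chain of the GM-CSF receptor, whose reads may be shared with its near copy Csf2rb2. Csf2rb was not called without anti-Act1 replicate 2 (adjusted p = 0.0511).

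Nfatc1, the transcription factor of this pathway, had 47.7 and 55.0 CPM in the WT libraries and 46.9 and 47.8 CPM in the others. The groups overlapped, because WT replicate 1 lay between the anti-Act1 libraries. Nfatc1 differed by a log2 fold change of -0.12 (SE 0.064, 95% interval -0.25 to 0.0099, adjusted p = 0.201). WT replicate 1 decided the call: without it the log2 fold change was -0.22 (adjusted p = 0.0135), and without WT replicate 2 it was -0.013 (adjusted p = 0.945). Fos, the AP-1 subunit that osteoclast formation requires, was lower, at 459 and 455 CPM against 384 and 382 CPM (log2 fold change -0.25, adjusted p = 0.000107). Other AP-1 subunits went the other way: Jun (0.23, adjusted p = 0.000374) and Junb (0.21, adjusted p = 0.00138) were higher. Fosl2 (0.093) and Jund (-0.036) were not called.

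Among the 22 transcription factors listed here as promoting osteoclasts, all tested, 4 rose and 8 fell, with a median of -0.037. The largest changes at a mean of 1 CPM or more were the nuclear receptor Pparg (-0.81, adjusted p = 2.16e-10) and the growth regulator Myc (-0.76, adjusted p = 0.00161), then Nfatc2 (-0.46, adjusted p = 1.15e-06), a relative of Nfatc1, and Bhlhe40 (0.44, adjusted p = 1.03e-08). Among the 19 tested of 21 factors listed here as restraining osteoclasts, 5 rose and 8 fell, with a median of -0.075. The lists give each factor a single role, and these roles were not tested in these cells. The largest were Id1 (-1.66, adjusted p = 1.13e-09), Cebpb (-0.89, adjusted p = 1.09e-09), Id3 (-0.80, adjusted p = 1.60e-15) and Nr4a1 (-0.79, adjusted p = 6.55e-08). Id1 and Id3 are inhibitors of E-box-binding factors. The size of the Cebpb difference depended on 1 library, with 351 CPM in WT replicate 1 and 212 CPM in replicate 2. Without WT replicate 1 it was -0.48 and still called (adjusted p = 1.49e-14). DESeq2 did not call Cebpb (adjusted p = 0.118). Myc was -0.43 on the log2(FPKM + 1) scale and still called.

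Oscar is an osteoclast receptor that signals through Fcer1g. It had 2 and 7 counts in the WT libraries and 4 and 6 in the anti-Act1-labelled libraries, and no difference between the groups was detectable at this depth. Its adaptors were present throughout: Fcer1g had 527 and 488 CPM against 498 and 491 CPM, and Tyrobp had 696 and 621 CPM against 652 and 629 CPM. Neither adaptor was called (Fcer1g -0.036, adjusted p = 0.693, and Tyrobp -0.041, adjusted p = 0.659), and without WT replicate 1 both changed sign, to 0.020 and 0.043. Of the ITAM and calcium signalling list, 23 of 24 genes were tested, 3 fell and the other 20 were not called. The 3 were Pilrb1 (-0.47, adjusted p = 0.00194), which may share reads with Pilrb2, and the kinase Btk (-0.28, adjusted p = 0.000192) and the adaptor Lcp2 (-0.18, adjusted p = 0.0206), which carry the signal towards calcium. Pilrb1 was not called without anti-Act1 replicate 2 (adjusted p = 0.077), and Lcp2 was not called without anti-Act1 replicate 1 (adjusted p = 0.351) or without WT replicate 2 (adjusted p = 0.0898).

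Dcstamp, a multipass membrane protein needed for the fusion of osteoclast precursors and macrophage giant cells, changed most among the members. It had 239 and 279 counts in the WT libraries and 86 and 92 in the anti-Act1-labelled libraries, which is 3.70 and 3.68 CPM against 1.39 and 1.68 CPM. All WT values were above all anti-Act1 values, by more than the spread between replicates of either group. For Dcstamp the log2 fold change was -1.26 (SE 0.20, 95% interval -1.67 to -0.86, adjusted p = 2.42e-06), or 2.40-fold higher in WT, rank 247 by absolute log2 fold change among the genes tested. On the log2(FPKM + 1) scale it was -0.73 and still called. Its structural relative Ocstamp had 8 and 15 counts in WT and 6 and 6 counts in anti-Act1 libraries. Left in a fit without the filter on low counts, Ocstamp had a log2 fold change of -0.64 (adjusted p = 0.759) and Oscar 0.44 (adjusted p = 0.881).

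Atp6v0d2 is the d2 subunit of the vacuolar proton pump's membrane sector, which is enriched in osteoclasts and needed for their fusion. It had 673 and 714 CPM in the WT libraries and 605 and 578 CPM in the anti-Act1-labelled libraries, without overlap. The log2 fold change was -0.23 (SE 0.051, 95% interval -0.33 to -0.13, adjusted p = 0.000564), or 1.17-fold higher in WT, and limma on log2(FPKM + 1) without a filter did not call it (adjusted p = 0.0615). Its widely expressed counterpart Atp6v0d1 was not called (0.098, adjusted p = 0.203). Per length, the FPKM of Atp6v0d2 was 2.43 and 2.65 times that of Atp6v0d1 in WT and 2.15 and 1.91 times in anti-Act1 libraries, which did not overlap.

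Of 36 genes of the cell fusion machinery, 34 were tested, of which 6 rose and 11 fell, with a median of -0.039. The largest at a mean of 1 CPM or more were Stab2 (-1.15, adjusted p = 1.43e-09), a scavenger receptor, Mmp9 (0.96, adjusted p = 9.95e-13), a protease that osteoclasts secrete, the surface glycoprotein Cd200 (0.87, adjusted p = 1.49e-11) and Ccl2 (-0.85, adjusted p = 1.62e-08), a chemokine that favours fusion. On the log2(FPKM + 1) scale Stab2 was -0.51 and still called, a smaller change there than those of Mmp9 (0.80), Cd200 (0.74) and Ccl2 (-0.81).

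**Figure D3:**
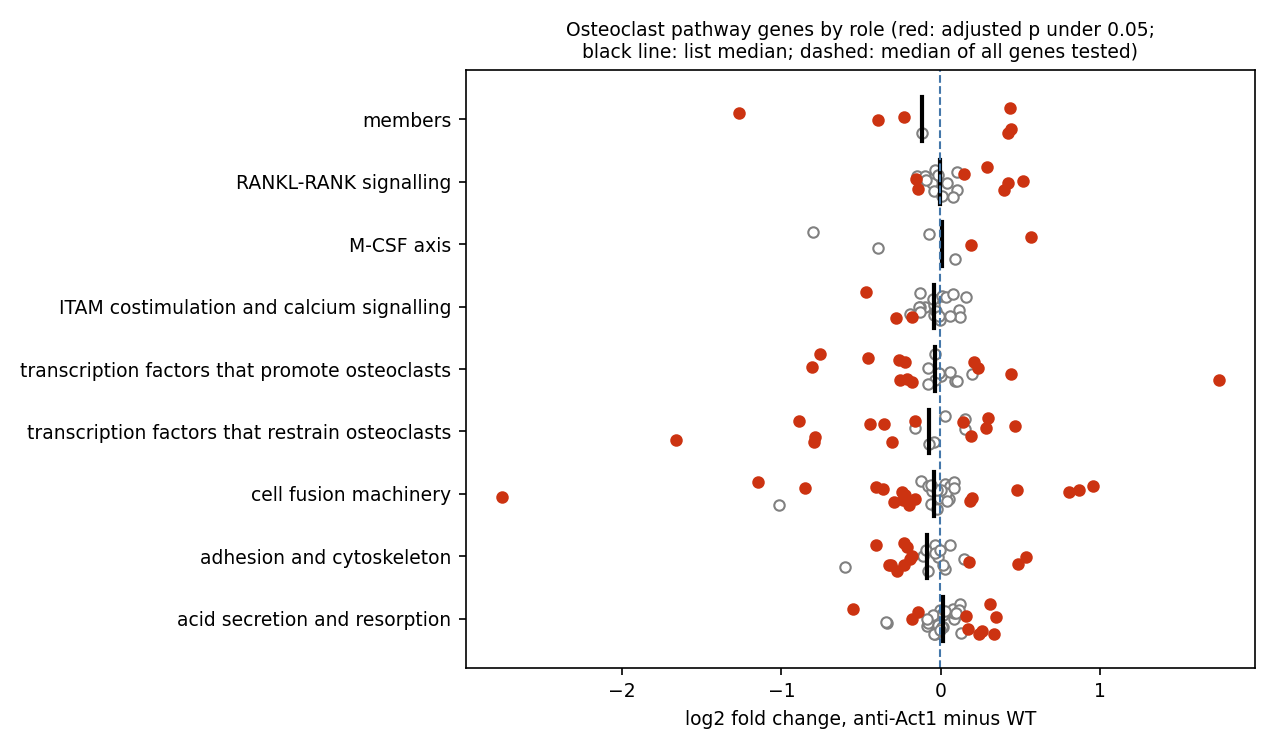
Log2 fold change, anti-Act1 minus WT, of each tested gene in the members and in 8 lists of osteoclast pathway genes (each row is a list, red points have an adjusted p under 0.05, the black line is the list median and the dashed line is the median of all genes tested). The list medians lie between -0.12 for the members and 0.012, and 6 of the 7 members are red; points to the left of -2 and right of 1.5 are Dysf and Fosl1, both below 1 CPM.

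Itgb3, the beta chain of the integrin by which osteoclasts attach to bone, rose from 10.6 and 11.9 CPM in the WT libraries to 14.8 and 15.8 CPM in the anti-Act1-labelled libraries. The groups did not overlap. For Itgb3 the log2 fold change was 0.44 (SE 0.095, 95% interval 0.25 to 0.63, adjusted p = 0.00039), and on the log2(FPKM + 1) scale it was 0.29, called by limma with a filter on low values (adjusted p = 0.0285) but not without one (adjusted p = 0.0939). Its partner chain Itgav was not called (0.14, adjusted p = 0.0639), although without WT replicate 2 it was (0.25, adjusted p = 0.00098). The FPKM of Itgb3 was 0.133 and 0.130 times that of Itgav in WT and 0.153 and 0.171 times in anti-Act1 libraries, again without overlap. Of 25 adhesion and cytoskeleton genes, 24 were tested, 3 rose and 9 fell, with a median of -0.088. The largest called changes at a mean of 1 CPM or more were Rhou (0.54, adjusted p = 0.00299) and Src (0.48, adjusted p = 4.17e-08), a kinase needed for the osteoclast ruffled border. Next came Spp1 (-0.40, adjusted p = 1.66e-08), a bone matrix ligand of the same integrin, and Itga4 (-0.32, adjusted p = 3.72e-05). Itga4 was -0.20 without WT replicate 2 and still called (adjusted p = 0.0124), and Rhou was 0.32 on the log2(FPKM + 1) scale.

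Acp5 encodes tartrate-resistant acid phosphatase, the classical enzyme stain for osteoclasts, which activated macrophages also make. It had 150 and 139 CPM in the WT libraries and 193 and 197 CPM in the anti-Act1-labelled libraries, without overlap. The log2 fold change was 0.43 (SE 0.052, 95% interval 0.33 to 0.54, adjusted p = 7.39e-09), or 1.35-fold higher. In GENCODE M21 the exons of Acp5 share bases with those of 6530413G14Rik on the other strand, and the strand setting of the counting is not given in the sources used here, so that reads of the pair cannot be told apart. The FPKM of Acp5 was 1.10 and 1.04 times that of Acp2, the lysosomal acid phosphatase, in WT and 1.36 and 1.34 times in anti-Act1 libraries.

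Ctsk, the cathepsin that cleaves bone collagen, had 243 and 230 CPM in the WT libraries and 320 and 314 CPM in the anti-Act1-labelled libraries, again without overlap. The log2 fold change was 0.42 (SE 0.051, 95% interval 0.32 to 0.53, adjusted p = 7.17e-09), or 1.34-fold higher. Ctsb, a broadly expressed lysosomal cathepsin, was lower (-0.14, adjusted p = 0.0265), and the FPKM of Ctsk was 0.0336 and 0.0323 times that of Ctsb in WT and 0.0504 and 0.0472 times in anti-Act1 libraries. Relative to Ctsl, which also rose (0.35, adjusted p = 2.37e-07), the FPKM of Ctsk was 0.0479 and 0.0492 times in WT and 0.0510 and 0.0510 times in anti-Act1 libraries, a smaller gap than that to Ctsb. Calcr, the calcitonin receptor of the mature osteoclast, had 0 counts in all 4 libraries, which allows up to 3 counts a library, or 0.0395 to 0.0549 CPM by depth.

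In the list of acid secretion and resorption genes, 35 of 36 were tested, 7 rose and 3 fell, with a median of 0.012. The largest called changes at a mean of 1 CPM or more were Atp6v0a1 (-0.55, adjusted p = 1.12e-11), another subunit of the pump's membrane sector, and Ctsl (0.35, adjusted p = 2.37e-07). Next came Atp6v0e (0.34, adjusted p = 1.89e-06) and Mmp12 (0.31, adjusted p = 2.11e-06). Over all 8 lists, 183 of 193 genes were tested, 32 rose and 44 fell, and 41.5% were called with a median of -0.029, beside 20.7% and -0.0046 for all genes tested. The lists were written with earlier results of these data known.

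The levels per length put the members in order. In FPKM over the 4 libraries, Atp6v0d2 (207) came first, followed by Ctsk (152), Acp5 (97.8), Tnfrsf11a (15.1), Nfatc1 (10.7), Itgb3 (2.28), Dcstamp (1.45), Ocstamp (0.0677) and Oscar (0.0404), with Calcr at 0. The neighbours Itgb3 and Dcstamp overlapped between libraries, with Itgb3 at 1.84 to 2.68 FPKM and Dcstamp at 0.766 to 2.05 FPKM, as did Ocstamp and Oscar. The other neighbours did not overlap between libraries. Thus the enzymes and the pump subunit stood highest, the receptor and its transcription factor in the middle, Itgb3 and Dcstamp below them, and Ocstamp, Oscar and Calcr near or at the floor.

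**Figure D4:**
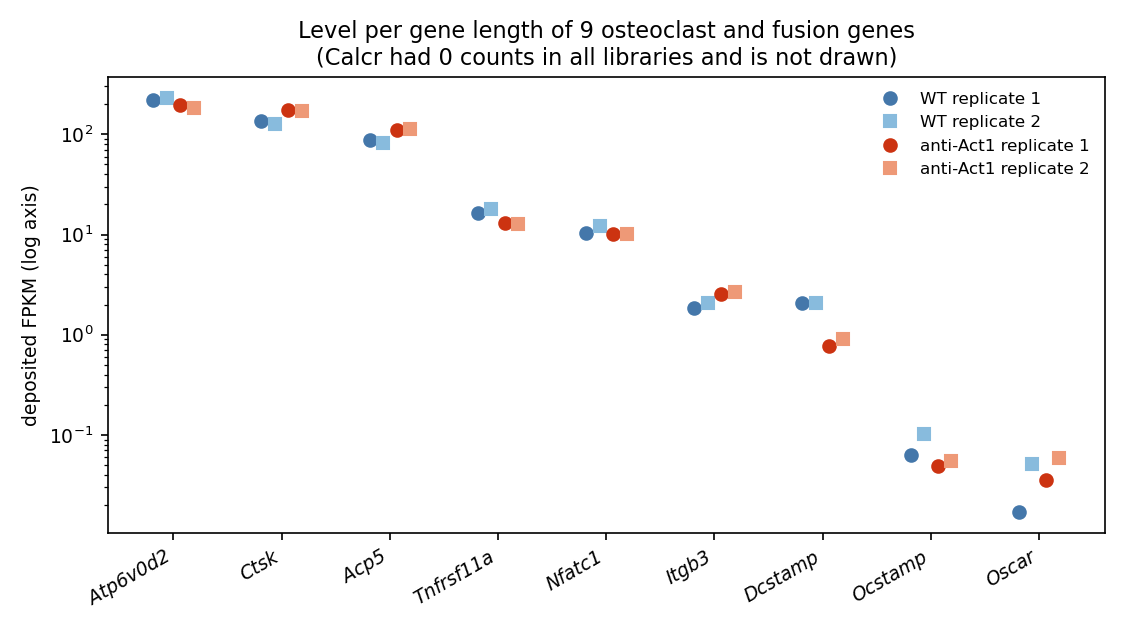
Deposited FPKM of 9 members in each library (the y axis is logarithmic, genes are in order of mean level, circles are replicate 1, squares are replicate 2, blue is WT and red is anti-Act1). Calcr, with 0 counts, is not drawn, and the levels fall from 207 FPKM on average for Atp6v0d2 to 0.0404 for Oscar.

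Under 13 other choices of test, scaling, filter, unit or libraries, the 6 called members kept their direction. The log2 fold change of Tnfrsf11a ranged from -0.45 to -0.33, that of Dcstamp from -1.40 to -0.73 and that of Atp6v0d2 from -0.27 to -0.19. Acp5 ranged from 0.38 to 0.49, Ctsk from 0.38 to 0.46 and Itgb3 from 0.29 to 0.53. Tnfrsf11a, Dcstamp, Acp5 and Ctsk were called under each of them.

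**Figure D5:**
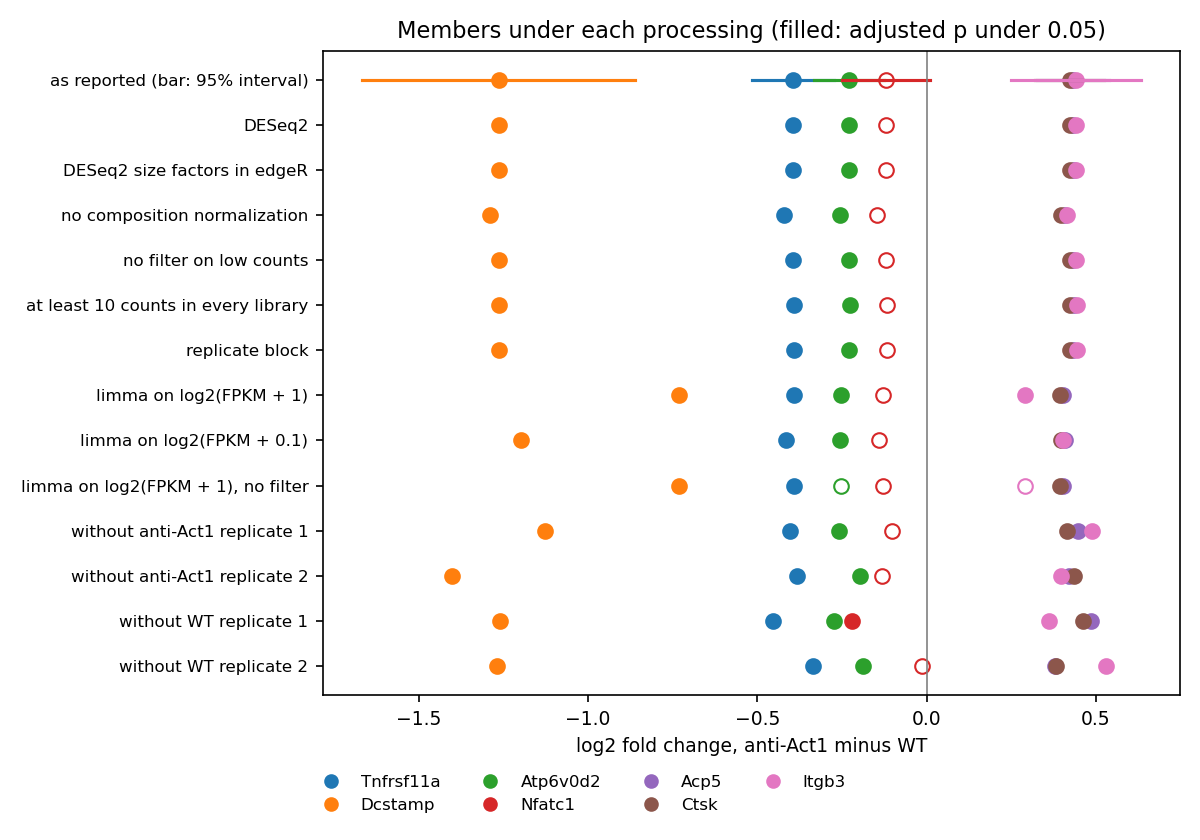
Log2 fold change, anti-Act1 minus WT, of the 7 tested members under the reported test (bars, 95% interval) and each of 13 alternatives (1 row each, with points filled where the adjusted p was under 0.05). Dcstamp stays lowest, between -1.40 and -0.73, and Nfatc1 is filled in 1 row only, without WT replicate 1.

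Macrophage markers moved as well: 1 of the 15 rose and 8 fell, with a median log2 fold change of -0.20 and a lowest of -1.51. Thus 60% of them were called, beside 20.7% of all genes tested. Neutrophil markers summed to 527 to 549 CPM, almost all of it Mmp8, which was not called (0.019, adjusted p = 0.844). Of the 7 tested neutrophil markers, S100a8 rose (0.66), S100a9, Ltf and Ngp fell (-1.42, -1.58 and -2.21), and the median was -0.99. Only 3 of the 10 neutrophil markers had a mean of 1 CPM or more, so most of the tested ones lay below it. T and NK cell markers summed to 27.6 to 32.7 CPM, with Cd4 the highest and only 2 of the 8 listed at a mean of 1 CPM or more. Of the 2 tested, 1 rose (0.21) and 1 fell (-0.67). The fibroblast and stroma markers summed to 2.29 to 3.14 CPM, with Lum at 0, the B cell markers to 3.03 to 4.16 CPM and the dendritic cell markers to 4.26 to 5.31 CPM. Mast cell markers summed to 0.0324 to 0.224 CPM and erythroid markers to 0.178 to 0.290 CPM. The part of these markers in the results above was not tested.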

How the data were processed

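Read pairs were filtered for adapter and base quality by the authors and mapped with TopHat, and the submitters' processing notes list Bowtie 0.12.2, HTSeq 0.6.1 and the builds mm8 and mm10 without a role. The authors deposited whole read counts per gene, not normalized, for 4 libraries, and FPKM values, whose computation is not given in the sources used here. The count table held 21878 genes, of which a spreadsheet had turned 27 names into dates, none of them members. No per-sample column was left out, and all 4 columns were matched to samples by label. Replicates of a group differed by more than sampling noise (chi-square over degrees of freedom 10.8 for WT and 7.39 for anti-Act1), and each was counted. Whether they came from separate mice is not given, so p-values measure the spread between these samples only. edgeR's fit estimates that spread partly from all genes together. An SE, interval or p-value thus does not measure the spread of that gene's own replicates alone.

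Counts were fitted with edgeR 4.0.16 in R 4.3.3, with TMM scaling, filterByExpr and quasi-likelihood tests over all genes, Benjamini-Hochberg adjusted at 0.05. CPM used TMM-scaled totals. Alternatives used DESeq2 1.42.0 and limma 3.58.1 on log2(FPKM + 1) or log2(FPKM + 0.1). The fits were also run on counts simulated from the kind of model edgeR assumes, with a spread that followed expression level only. That run gave no gene an extra spread between replicates, so it checks the code and not the p-values here. Named genes are the 10 members, Traf3ip2, RANKL, M-CSF and their receptors, set partners of members, and up to 4 genes in each list with the largest absolute log2 fold change among those called at a mean of 1 CPM or more. Ctsb and Acp2, set beside Ctsk and Acp5, and the neutrophil markers were chosen after their values were seen. So were Jun, Junb, Fosl2 and Jund, set beside Fos. The members and lists were chosen with earlier results of these data known. The 13 alternatives are described in the closing section.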

Additional observations from a re-analysis of the deposited data

How the results depend on the processing

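Of the 13 alternatives, 11 left 3 members higher and 3 lower. Without the filter on FPKM, limma on log2(FPKM + 1) called 1092 genes in place of 2586 and 2 members each way, since Itgb3 (adjusted p = 0.0939) and Atp6v0d2 (adjusted p = 0.0615) were no longer called, and the cause was not tested. Traf3, Csf2rb, Pilrb1, Lcp2, Cebpb, Rhou, Itga4, Ctsl and Mmp12 were not called there either. Leaving out 1 library at a time gave 1671 to 2543 genes called (1671 without anti-Act1 replicate 2 and 1712 without replicate 1), 3 members higher each time, 3 to 4 lower, and a median log2 fold change of the members of -0.22 to -0.013. In these fits the lone library of a group was assumed to vary like the other group. Tyrobp ranged from -0.12 to 0.043 and Fcer1g from -0.091 to 0.020, both positive without WT replicate 1 and neither called. With the log2(FPKM + 1) scale, Dcstamp was at -0.73, since the pseudocount shrinks low genes. DESeq2 called 1986 genes. The labels give both groups replicates 1 and 2. The replicates did not deviate together over 12494 genes (r = -0.03), which cannot show whether they were prepared together. With the replicate block, 2406 genes were called and 3 members were higher and 3 lower. Without composition normalization, 43.9% of called genes were higher, against 52.8%. Depth limits Ocstamp, Oscar and Calcr, which had at most 15 counts in any library, and the floors cover counting error only. Genotype and the Y-linked difference cannot be told apart, and 2 libraries a group leave each estimate open to 1 library.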

Other observations

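A pair of genes of the lists were called but lie below the mean of 1 CPM that the naming rule asks for, and were chosen after their values were seen. Fosl1, a subunit of AP-1, was at 0.23 and 0.12 CPM in WT and at 0.62 and 0.55 CPM in the anti-Act1-labelled libraries (log2 fold change 1.75, adjusted p = 0.0127, edgeR). Dysf, a membrane repair protein related to the fusion gene Myof, was at 0.28 and 0.21 CPM in WT and at 0.03 and 0.04 CPM in the anti-Act1-labelled libraries (adjusted p = 0.0204, edgeR). The tetraspanins of the fusion list were also chosen after their values were seen. Tspan13 was 0.81 (adjusted p = 7.96e-17), Cd81 0.48 (adjusted p = 7.26e-09) and Cd9 0.20 (adjusted p = 0.00294) on the log2 scale, all higher, and Tspan5 was 0.0017 (adjusted p = 0.992). Cd9 and Cd81 have been reported to restrain the fusion of mononuclear phagocytes, and their role in these cells was not tested.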
